A study of Mus musculus with 2 samples.

Results

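The 32 genes described here encode enzymes of glycolysis, the membrane transporters for glucose and lactate, and regulators that cells switch on when oxygen is scarce. They were taken by name, and each was found as 1 feature among 56982 in both count matrices. The set holds 17 glycolytic enzymes, 4 transporters, 10 hypoxia-induced regulators and Mif, a secreted cytokine. Aldoa, the main aldolase of most tissues, is not in the set.

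The data are single-cell RNA counts from 2 libraries, each made from the hindlimb of a single transgenic FVB mouse embryo of stage E11.5. Both embryos carried a pair of fluorescent reporters at the H11 locus, a transgene insertion site: mCherry was joined to the reference ZRS, a limb enhancer of Shh, and eGFP to the ZRS404G>A allele of it. The genotype of the dual-enSERT-2 embryo also lists parts called B and SI, which the labels do not spell out, and that of the dual-enSERT-1 embryo lists neither. With 1 library per genotype there is no replicate, so no test was run; embryo, construct and preparation cannot be told apart.

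Glycolysis splits glucose into pyruvate in the cytosol, and lactate dehydrogenase turns pyruvate into lactate when it does not enter mitochondria. When oxygen falls, the prolyl hydroxylases Egln1 and Egln3 no longer mark the HIF alpha proteins for destruction, and HIF then switches on many glycolytic genes together with Vegfa, Bnip3, Pdk1 and others. In the limb bud, glycolysis has been linked to outgrowth of the distal mesenchyme under the apical ectodermal ridge. RNA counts do not measure dependence on glycolysis. Several of the genes also answer to signals other than oxygen, Ddit4 and Hk2 among them.

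The dual-enSERT-1 matrix held 20508 barcodes with 298653282 UMIs and the dual-enSERT-2 matrix 8885 barcodes with 184301053 UMIs, and 49 barcodes occurred in both. After filtering, 16041 and 6472 cells were kept, of which 13104 (81.7%) and 3803 (58.8%) were mesenchyme-like. The other named cells were erythroid-like (245 and 1637), ectoderm-like (431 and 181), muscle-like (550 and 77), endothelial-like (202 and 104) and macrophage-like (63 and 56). The remaining 1446 and 614 cells were shallow clusters without a name and were left out. The 7 mesenchyme markers, among them Prrx1, Twist1 and Tbx4, summed to 2065 and 1871 CPM in mesenchyme-like cells and to 24.3 to 333 CPM in the other classes. The dual-enSERT-2 macrophage-like cluster was also led by Mpo and Pf4, genes of other blood lineages.

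Hypoxia-inducible factors bind a short core, and the start regions of 4 members are printed because these genes differ most between the libraries in mesenchyme-like cells and are in the promoter table used. Each is the 250 bases before the first listed RefSeq transcription start on GRCm38.p6, 5′ to 3′ on the gene's strand, and capitals mark the letters ACGTG or GCGTG on either strand, overlaps included. Hk2 lies at chr6:82774455-82774704 (minus strand), Pdk1 at chr2:71872974-71873223 (plus), Bnip3 at chr7:138909507-138909756 (minus) and Ddit4 at chr10:59951771-59952020 (minus).
Hk2: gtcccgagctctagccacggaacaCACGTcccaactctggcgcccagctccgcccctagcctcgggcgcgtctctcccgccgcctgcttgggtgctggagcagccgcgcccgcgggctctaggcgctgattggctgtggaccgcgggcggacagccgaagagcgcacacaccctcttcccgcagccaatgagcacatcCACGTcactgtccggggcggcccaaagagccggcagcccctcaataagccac
Pdk1: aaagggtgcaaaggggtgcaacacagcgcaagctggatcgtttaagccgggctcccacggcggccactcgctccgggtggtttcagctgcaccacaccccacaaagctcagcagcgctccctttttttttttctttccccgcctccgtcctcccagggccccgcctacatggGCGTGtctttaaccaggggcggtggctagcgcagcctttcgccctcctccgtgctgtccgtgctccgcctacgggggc
Bnip3: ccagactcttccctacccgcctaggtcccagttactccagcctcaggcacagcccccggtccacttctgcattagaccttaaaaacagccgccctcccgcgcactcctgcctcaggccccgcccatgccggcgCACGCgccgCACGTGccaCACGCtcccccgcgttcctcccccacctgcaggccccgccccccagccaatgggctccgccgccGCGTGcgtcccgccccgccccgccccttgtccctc
Ddit4: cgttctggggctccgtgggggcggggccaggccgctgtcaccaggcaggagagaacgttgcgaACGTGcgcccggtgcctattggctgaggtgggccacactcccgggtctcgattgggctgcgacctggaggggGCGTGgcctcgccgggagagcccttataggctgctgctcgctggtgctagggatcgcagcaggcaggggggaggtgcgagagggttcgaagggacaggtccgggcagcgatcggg

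Bnip3 held 5 matches, Hk2 and Ddit4 held 2 each and Pdk1 held 1. Of the 30 members with a window in the table, 23 (76.67%) held at least 1 match, against 38.6% of 27025 genes with such a window. Member windows held a median of 14 CpG dinucleotides against 6 for all genes, and each motif contains a CpG; the part of base composition in the difference was not tested. Ldha held 5 matches and Ankrd37 and Slc16a1 held 4 each, whereas Vegfa, Hk1, Gpi1, Pkm, Tpi1, Mif and Eno2 held none of these letters in this window. For a gene with more than 1 listed window, only the first was read. Pdk1, Ldha, Vegfa, Hk1 and Pkm had 2 each. A match is a description and not a binding site.

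Levels are given as CPM, which is a gene's UMIs as a share of every UMI in the group's cells, with exact 95% Poisson intervals that cover counting error only. These are 3′ UMI counts, with 1 tag per molecule and no scaling by length. The class contrasts set each class against mesenchyme-like cells and call a gene that differed at least 1.5-fold in the same direction in both libraries, with 10 CPM or more in either group of both libraries. A gene under 10 CPM in 1 of the groups could be called in 1 direction only, and the same filter applied to all features. Log2 ratios carry a pseudocount of 1 CPM, whereas ratios with an interval are of the counts themselves. Of the members, 24 reached that floor in all class contrasts, and Aldoc and Eno2 reached it in no contrast of any kind, with at most 8.88 CPM and 0.947 CPM in any class.

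**Figure D1:**
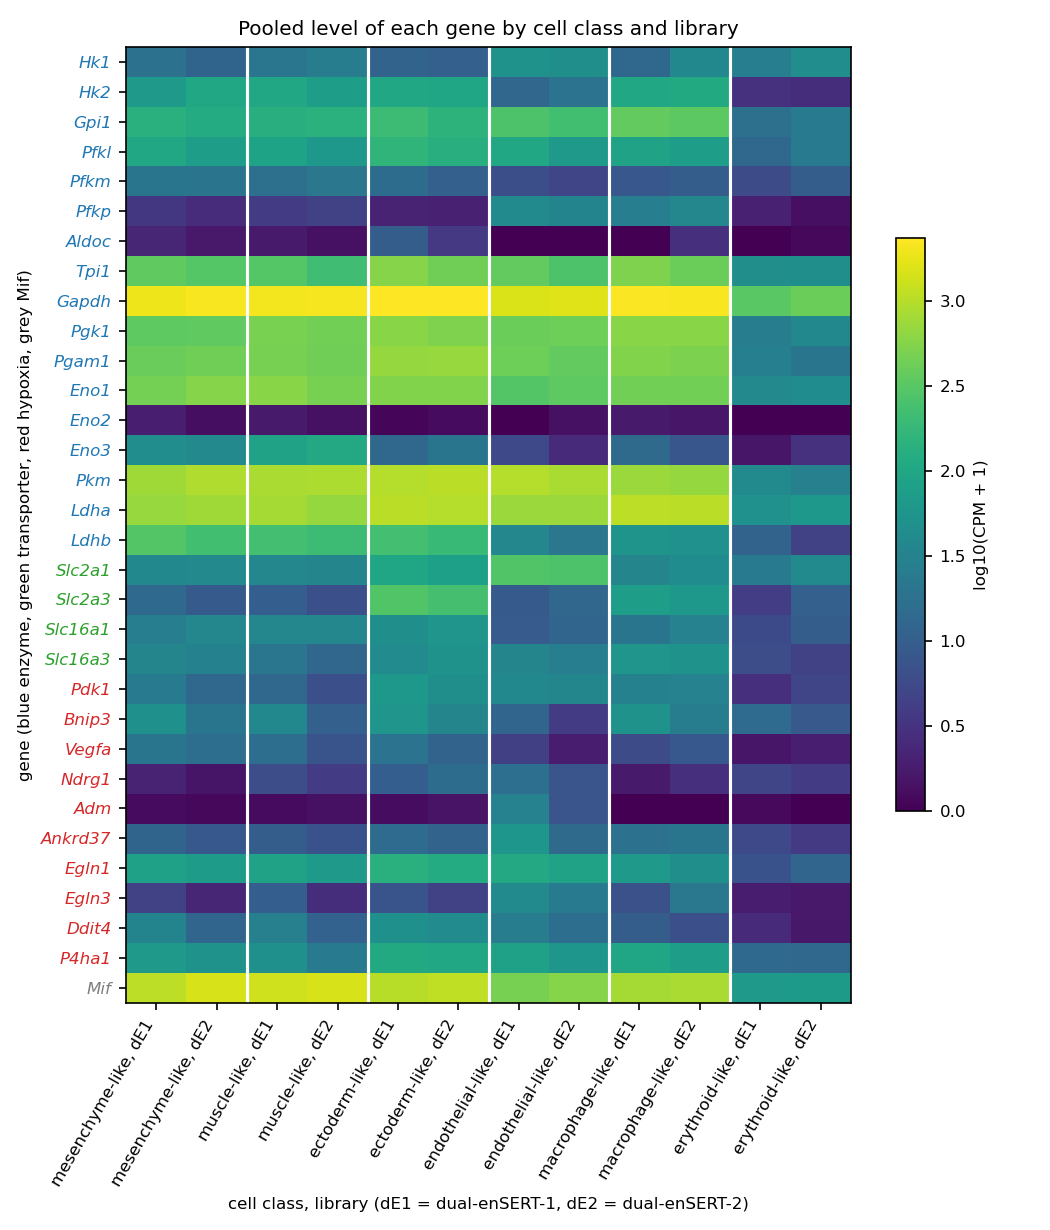
Heat map of the pooled level of the 32 genes, as log10(CPM + 1), in 6 cell classes of both libraries; genes are rows, classes and libraries are columns. The erythroid-like columns are dark for nearly all genes, Slc2a3 is bright in ectoderm-like cells and Slc2a1 in endothelial-like cells. Adm, Egln3 and Pfkp stand out in endothelial-like cells. Pfkp does so in macrophage-like cells as well, as does Egln3 in those of dual-enSERT-2.

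The abundant enzymes set the sums. In mesenchyme-like cells Gapdh stood at 1911 and 2174 CPM, Pkm at 783 and 920 CPM, Ldha at 704 and 773 CPM, and Eno1 at 467 and 576 CPM. Pgam1 was at 396 and 434 CPM, Tpi1 at 354 and 299 CPM and Pgk1 at 338 and 351 CPM. Mif was at 1079 and 1474 CPM in mesenchyme-like and 473 and 578 CPM in endothelial-like cells, where it was called lower. Ndrg1, at most 16.1 CPM, was seen mainly in endothelial- and ectoderm-like cells. Near-identical copies may share reads with some members, whose levels are uncertain to that extent: in mesenchyme-like cells Eno1b stood at 6.96 and 7.25 CPM, Ldhb-ps at 17.9 and 9.38 CPM and Mif-ps4 at 9.01 and 12.9 CPM.

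Summed over the 17 enzymes, ectoderm-like cells had the highest level, 7478 CPM (interval 7412 to 7546) in dual-enSERT-1, and 7182 CPM (7098 to 7268) in the dual-enSERT-2 library. Macrophage-like cells followed with 6832 and 6526 CPM, muscle-like cells had 6263 and 5952 CPM, mesenchyme-like cells 5631 and 6114 CPM, and endothelial-like cells 5258 and 5027 CPM. The order of muscle and mesenchyme was not the same in the libraries. The 10 hypoxia-induced regulators were likewise highest in ectoderm-like cells, at 462 and 383 CPM, against 291 and 191 CPM in mesenchyme-like cells. Next came endothelial-like cells, at 413 and 248 CPM, which had the lowest enzyme sum of the non-erythroid classes. The enzyme sum and the regulator sum therefore put endothelial-like cells in different places. Of the 32 members, 12 had their highest level in ectoderm-like cells in both libraries, 4 in endothelial-like, 3 in macrophage-like, 2 in mesenchyme-like and 1 in muscle-like cells. These counts used no floor, so Aldoc counts for ectoderm-like and Adm for endothelial-like cells. The share of all features highest in each class was not counted, so no excess can be read from them.

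In ectoderm-like cells, 8 of the 26 members above the floor were called higher and Eno3 was the 1 called lower. Over all 9432 features tested, 11% were called higher and 9.72% lower. Slc2a3, the high-affinity glucose transporter known from neurons, had the largest ratio, at 282 and 234 CPM in ectoderm-like cells and 13.2 and 8.05 CPM in mesenchyme-like cells (log2 ratios 4.31 and 4.70; ratios 21.3, interval 20.1 to 22.6, and 29.1, interval 26.5 to 31.96). In dual-enSERT-2 Slc2a3 reached 10 CPM through ectoderm-like cells alone, so the floor fixed the direction of its call. After thinning to 5000 UMIs per cell, 41.88% and 39.07% of ectoderm-like cells held a Slc2a3 UMI, against 5.631% and 3.829% of mesenchyme-like and 1.807% and 2.817% of endothelial-like cells. Thinning left out 111 and 30 ectoderm-like and 36 and 33 endothelial-like cells. Without thinning the shares were 46.87% and 54.7% in ectoderm-like and 15.6% and 16.25% in mesenchyme-like cells, at median depths of 9618 and 15958 against 14574.5 and 27331 UMIs.

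The other transporters of ectoderm-like cells pointed the same way. Slc2a1, the widely used glucose transporter, stood at 98.7 and 80.1 CPM against 36.5 and 37.6 CPM, and the monocarboxylate carrier Slc16a1 at 47.2 and 55.8 CPM against 26.5 and 35.1 CPM. Among the regulators, Pdk1, the kinase that shuts off pyruvate dehydrogenase, was at 62.4 and 47.1 CPM against 24.1 and 12.4 CPM. P4ha1, a collagen prolyl hydroxylase, was at 109 and 102 CPM against 65.6 and 53.3 CPM. The oxygen sensor Egln1 reached 138 and 119 CPM against 84.5 and 69.6 CPM. Among enzymes, Pfkl of the committed step (log2 0.64 and 0.73) and Pgam1 (0.81 and 0.69) were called higher. The median log2 ratio of the 14 enzymes above the floor was 0.45 and 0.15, against −0.12 and −0.07 over all features. Eno3, the 1 called lower, was at 12.8 and 19.4 CPM against 44.5 and 38.1 CPM. Of the 12 citrate cycle genes none was called in either direction, nor was any of the 6 pyruvate dehydrogenase genes above the floor. Of 13 further hypoxia targets above the floor, Fam162a was called higher (log2 1.17 and 1.02), and Cited2 (−1.01 and −1.37) and Hilpda (−0.81 and −0.69) lower. Vhl, which marks HIF alpha for destruction, was the 1 of 5 oxygen-sensing genes called lower (−0.86 and −0.65), and the carrier Slc16a7 was called higher (1.21 and 1.69). The 54-cell cluster of the dual-enSERT-2 ectoderm-like cells was shallow, with a median of 5216 UMIs.

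Endothelial-like cells had a different set of isoenzymes. Called were 7 of 28 members higher and 9 lower, against 16.8% and 21.8% of the 9548 features tested. Of those called, Pfkp and Egln3 reached 10 CPM in both libraries through endothelial-like cells alone, and Pfkm, Eno3 and Vegfa through mesenchyme-like cells alone. In dual-enSERT-2, Ankrd37 reached it through endothelial-like cells alone and Bnip3 through mesenchyme-like cells alone. Slc16a1 reached it in dual-enSERT-1 through mesenchyme-like cells alone. The floor fixed the direction of each of these genes. Slc2a1 was at 284 and 272 CPM against 36.5 and 37.6 CPM in mesenchyme-like cells (ratios 7.78, interval 7.37 to 8.21, and 7.23, interval 6.66 to 7.85), and 72.29% and 63.38% of thinned endothelial-like cells held a UMI of it. Hk1, the housekeeping hexokinase, was at 52.0 and 47.2 CPM against 17.2 and 11.2 CPM, while Hk2, the regulated one, was at 12.1 and 18.1 CPM against 64.6 and 99.6 CPM. So both hexokinases differed, in opposite directions. The platelet-type phosphofructokinase Pfkp was at 38.8 and 31.9 CPM against 2.55 and 1.66 CPM, and the muscle-type Pfkm at 5.44 and 4.03 CPM against 19.6 and 18.6 CPM. Ldhb, the lactate dehydrogenase subunit that favours the pyruvate side, was at 35.5 and 20.6 CPM against 290.2 and 223 CPM. Gpi1, the phosphoglucose isomerase, was called higher, at 264 and 221 CPM against 136 and 118 CPM. Eno3, at 4.56 and 1.61 CPM against 44.5 and 38.1 CPM, was called lower, as were Slc16a1, at 8.25 and 11.7 CPM against 26.5 and 35.1 CPM, and Eno1 (log2 −0.66 and −0.77).

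The regulators of endothelial-like cells split as well. Egln3, the hydroxylase that HIF itself induces, was at 39.3 and 24.2 CPM against 3.46 and 1.29 CPM, and Ankrd37 at 58.4 and 13.7 CPM against 11.2 and 7.38 CPM. Pdk1 was at 36.9 and 33.9 CPM against 24.1 and 12.4 CPM, the smallest called ratio of the 7 in dual-enSERT-1. In contrast Bnip3, a mitophagy receptor, was at 11.6 and 2.82 CPM against 48.5 and 19.6 CPM. Vegfa, the growth factor that acts on endothelium, was at 3.33 and 0.807 CPM against 19.5 and 15.4 CPM; its dual-enSERT-2 endothelial-like level rests on 2 UMIs. Adm, a vasoactive peptide, was at 30.4 and 6.86 CPM against 0.273 and 0.176 CPM in mesenchyme-like cells, and did not reach the floor in dual-enSERT-2. Of the 7 oxygen-sensing genes outside the set, Epas1, the HIF2 alpha subunit of endothelium (log2 6.64 and 6.99), and Hif3a (1.27 and 1.79) were called higher. Of 13 further hypoxia targets above the floor, Hmox1, heme oxygenase, was called higher (1.499 and 1.325) and 6 lower, led by Cited2 (−2.58 and −2.46), P4ha2 (−1.58 and −1.13), Mxi1 (−1.24 and −1.37) and Tfrc (−1.56 and −1.09). Pdk3 was called lower (−0.96 and −0.86). Beside these values, the 8 stress genes such as Fos and Egr1 summed to 431 and 233 CPM in endothelial-like cells against 127 and 65.9 CPM in mesenchyme-like cells. The erythroid markers summed to 2036 and 21773 CPM in endothelial-like cells against 293 and 3827 CPM in mesenchyme-like cells, and 6 of 7 hemoglobins were called higher there. Hk1 and Slc2a1 were also higher in erythroid-like cells once hemoglobin UMIs were left out. The part of stress genes and of erythroid RNA in these results was not tested.

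Erythroid-like cells gave hemoglobin 679139 and 580240 CPM of their counts, which lowers the CPM of every other gene. On that scale 22 of 24 members were called lower, against 87.2% of all 8906 features, and Hk1 was called higher, at 26.7 and 44.5 CPM, against 4% of features. With hemoglobin UMIs left out of the denominator, Hk1 and Slc2a1 were called higher (log2 2.21 and 3.13 for Hk1, 0.98 and 1.29 for Slc2a1) and 18 of 25 lower, against 13.3% and 50.5% of features. Hk1 made up 92.9% and 96.2% of hexokinase UMIs in erythroid-like cells, and 21.02% and 10.1% in mesenchyme-like cells. Of the further glycolysis genes, Pklr, the pyruvate kinase of liver and red cells, and Bpgm, which makes 2,3-bisphosphoglycerate, were higher even on the total scale (log2 4.89 and 5.64, and 3.40 and 3.37). So were Tfrc, the transferrin receptor (2.13 and 2.12), Pdk2 (1.46 and 2.24), Pfkfb1 (1.73 and 2.54) and Taldo1 of the pentose phosphate pathway (0.98 and 0.93). On that scale the lower calls took in 11 of 12 citrate cycle genes, 9 of 12 further hypoxia targets, 6 of 7 pyruvate dehydrogenase genes, 5 of 7 pentose phosphate genes, 5 of 5 oxygen-sensing genes and Pck2 (−1.34 and −0.88). Among members the 8 lowest on it were Ldhb (−4.62 and −5.59), Hk2 (−4.43 and −5.18), Pkm (−4.23 and −4.95), Mif (−4.07 and −4.43), Pgam1 (−3.82 and −4.40), Eno3 (−4.82 and −3.69), Ldha (−3.81 and −3.61) and Eno1 (−3.58 and −3.74). Hk2 and Eno3 were under 10 CPM in erythroid-like cells of both libraries, and Ldhb in those of dual-enSERT-2. The floor fixed the direction of these genes.

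**Figure D2:**
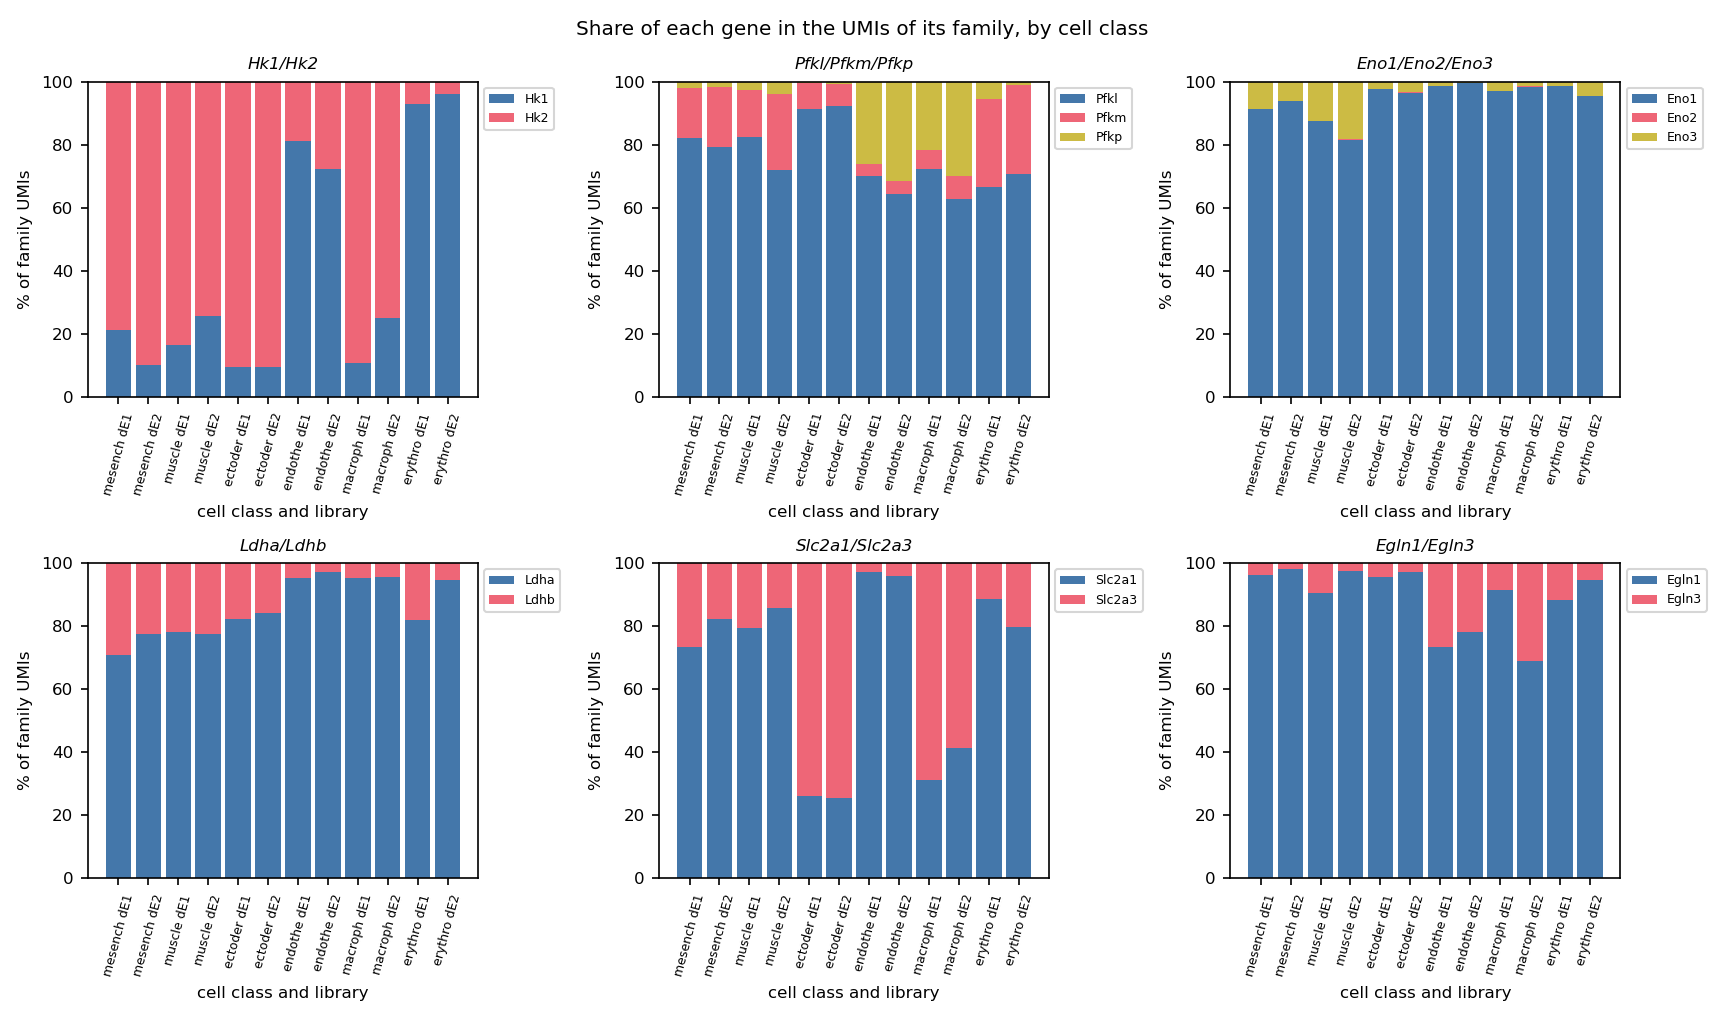
Stacked bars of the share, in percent, that each gene takes of the UMIs of its family, for 6 families in 6 classes of both libraries. Hk1 is the larger share in endothelial- and erythroid-like cells and Hk2 in the other classes, Slc2a3 in ectoderm- and macrophage-like cells, and Pfkp is over 20% in endothelial- and macrophage-like cells only.

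The bars show isoenzyme use in each class. Slc2a3 took 74.1% and 74.5% of the Slc2a1 and Slc2a3 UMIs in ectoderm-like cells, 68.7% and 58.7% in macrophage-like cells, and 2.77% and 4.26% in endothelial-like cells. Pfkp took 26.2% and 31.6% of the phosphofructokinase UMIs in endothelial-like cells and 2.05% and 1.70% in mesenchyme-like cells. Eno3, the muscle enolase, took 12.6% and 18.4% of the enolase UMIs in muscle-like cells and 8.67% and 6.20% in mesenchyme-like cells.

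In muscle-like cells 1 of 24 members was called higher and 2 lower, against 2.86% and 6.08% of 8959 features. Eno3 was at 85.9 and 108 CPM against 44.5 and 38.1 CPM. Slc16a3, the lactate exporter, was at 19.8 and 12.1 CPM against 33.0 and 29.1 CPM, and Pdk1 at 12.4 and 5.604 CPM against 24.1 and 12.4 CPM. Pdk1 reached 10 CPM in dual-enSERT-2 through mesenchyme-like cells alone, so the floor fixed the direction of its call. Among the other pathways Pdha1, the subunit on which Pdk1 acts, and Idh3a of the citrate cycle were called higher (log2 0.70 and 0.87, and 0.90 and 0.71). In macrophage-like cells 6 of 27 members were called higher and 5 lower, against 17.5% and 20.8% of 9753 features. Gpi1 was at 363 and 334 CPM against 136 and 118 CPM, Slc2a3 at 73.7 and 61.1 CPM, and Pfkp at 26.3 and 35.6 CPM, whereas Ldhb was at 54.7 and 49.3 CPM. Pgk1, Slc16a3 and Ankrd37 were the other 3 called higher (log2 0.80 and 0.76, 0.77 and 0.84, 0.60 and 1.28), and Eno3, Pfkm, Vegfa and Ddit4 the other 4 called lower (−1.61 and −2.31, −1.31 and −1.01, −1.75 and −0.95, −1.79 and −0.93). Of those called, Pfkp reached 10 CPM in both libraries through macrophage-like cells alone, and Pfkm, Vegfa and Ddit4 through mesenchyme-like cells alone. In dual-enSERT-2, Slc2a3 and Ankrd37 reached it through macrophage-like cells alone and Eno3 through mesenchyme-like cells alone. The floor fixed the direction of each of these genes. The macrophage-like cells were 63 and 56, and their stress genes summed to 1471 and 1142 CPM and their erythroid markers to 598 and 13333 CPM, against 1625 and 6364 CPM of the latter in muscle-like cells; their part in the result was not tested. Of the 7 pentose phosphate genes, G6pdx, Pgd and Taldo1 were called higher in them. Of 13 further hypoxia targets, Hmox1 (log2 5.40 and 4.06), Pfkfb3 (1.73 and 1.66), Ero1a (0.89 and 1.55) and Tfrc (0.59 and 0.82) were called higher, and P4ha2 (−2.67 and −1.82) and Plod2 (−2.52 and −1.42) lower. Hk3, a hexokinase of myeloid cells (4.02 and 4.59), Slc16a7 (2.79 and 2.33), Tigar (1.34 and 1.31) and Pdha1 (0.62 and 0.64) were higher as well, and Hif1an (−0.73 and −0.65) lower.

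Mesenchyme-like cells were next compared among themselves, by whether a cell held a UMI of Hoxa13 or Hoxd13 (markers of the autopod), Meis1 or Meis2 (proximal limb), Sox9 (cartilage precursors) or, within the Hoxa13/Hoxd13 cells, Shh. A call here needed a log2 ratio of at least 0.32 in either direction. Cells were sorted into groups after thinning to 5000 UMIs, which left out 123 and 42 mesenchyme-like cells, and the levels used all their UMIs. The groups differed in depth all the same. Sox9 cells and those without had medians of 13263 and 15621 UMIs in dual-enSERT-1, and 27375 and 27497 in the dual-enSERT-2 library. With and without Hoxa13/Hoxd13 UMIs the medians were 16519 and 13564.5 in the dual-enSERT-1 library, against 29291 and 27140 in that of dual-enSERT-2; for Meis1/Meis2 they were 12958 and 15220.5, and 26150 and 28464.

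By Hoxa13/Hoxd13 (4181 against 8800 cells, and 585 against 3176), 3 of 25 members were called higher and 2 lower, against 2.52% and 3.74% of 8817 features. Hk2 was at 84.4 CPM with and 53.2 CPM without these UMIs in dual-enSERT-1, and at 121 and 95.3 CPM in dual-enSERT-2. Slc2a3 was at 21.7 against 8.39 CPM, and 11.01 against 7.48 CPM, so its ratio was larger in dual-enSERT-1 (2.58, interval 2.39 to 2.79, and 1.47, interval 1.249 to 1.728). Slc16a3 was at 39.9 against 29.1 CPM and 38.7 against 27.2 CPM. Lower in the distal cells were Eno3, at 29.4 against 53.1 and 27.7 against 40.2 CPM, and Ddit4, an mTOR inhibitor, at 21.8 against 38.9 and 7.14 against 12.4 CPM. Slc2a3 reached 10 CPM through the distal cells only in both libraries. Ddit4 reached it in dual-enSERT-2 through the cells without these UMIs only. The floor fixed the direction of both calls. The enzyme sum was 6118 against 5353 CPM and 6551 against 6028 CPM, and 10 of 14 enzymes were above 0 in both libraries, against 37.2% of all features. Pdha1 was the 1 of 6 pyruvate dehydrogenase genes called higher (log2 0.71 and 0.34). Stress genes summed to 121 against 130 CPM in dual-enSERT-1 but 90.6 against 61.1 CPM in dual-enSERT-2, and hemoglobins to 319 against 306 CPM and 2675 against 4582 CPM. The part of these and of depth in the result was not tested. The regulators gave no such order: their sum was 269 against 303 CPM in dual-enSERT-1, and 200 against 190 CPM in the dual-enSERT-2 library.

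By Meis1/Meis2 (3681 against 9300 cells, and 1559 against 2202) the same genes were read from the proximal side, with 2 of 24 called higher and 3 lower against 3.61% and 2.28% of features. The groups overlap with the Hoxa13/Hoxd13 ones, so this is no separate support. Eno3 and Ddit4 were higher with a Meis UMI (log2 0.62 and 0.62, and 0.49 and 0.46), and Hk2, Ldha and Slc16a3 lower (−0.75 and −0.37, −0.47 and −0.36, −0.51 and −0.56). The enzyme sum was 4935 against 5879 CPM and 5646 against 6420 CPM, with stress genes at 136 against 124 CPM and 55.4 against 72.95 CPM; their part and that of depth were not tested. Pdha1 was called lower (log2 −0.54 and −0.32). By Shh, 217 against 3964 cells and 45 against 540, Slc2a1, Slc2a3, Slc16a3 and Pdk1 were called higher, 4 of 24 against 2.24% of features; none was called lower, against 2.92%. Slc2a3 was at 27.8 against 21.4 CPM and 22.3 against 9.99 CPM, the dual-enSERT-2 value from 33 UMIs. In that library Slc2a3 reached 10 CPM through the Shh cells only, so the floor fixed the direction of its call. Slc2a1 was at 45.6 against 36.0 CPM and 52.1 against 38.8 CPM, and Slc16a3 at 49.7 against 39.4 CPM and 52.1 against 37.4 CPM. Of 14 further hypoxia targets, Car12 (log2 0.73 and 0.54) and Pfkfb3 (0.44 and 0.66) were called higher. The Pdk1 ratio in dual-enSERT-2 rests on 25 UMIs and its interval, 0.816 to 1.96, spans 1. Under 5 other settings 0 to 2 members were called, and each of the 4 changed sign in a library under at least 1 of the alternatives tried.

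**Figure D3:**
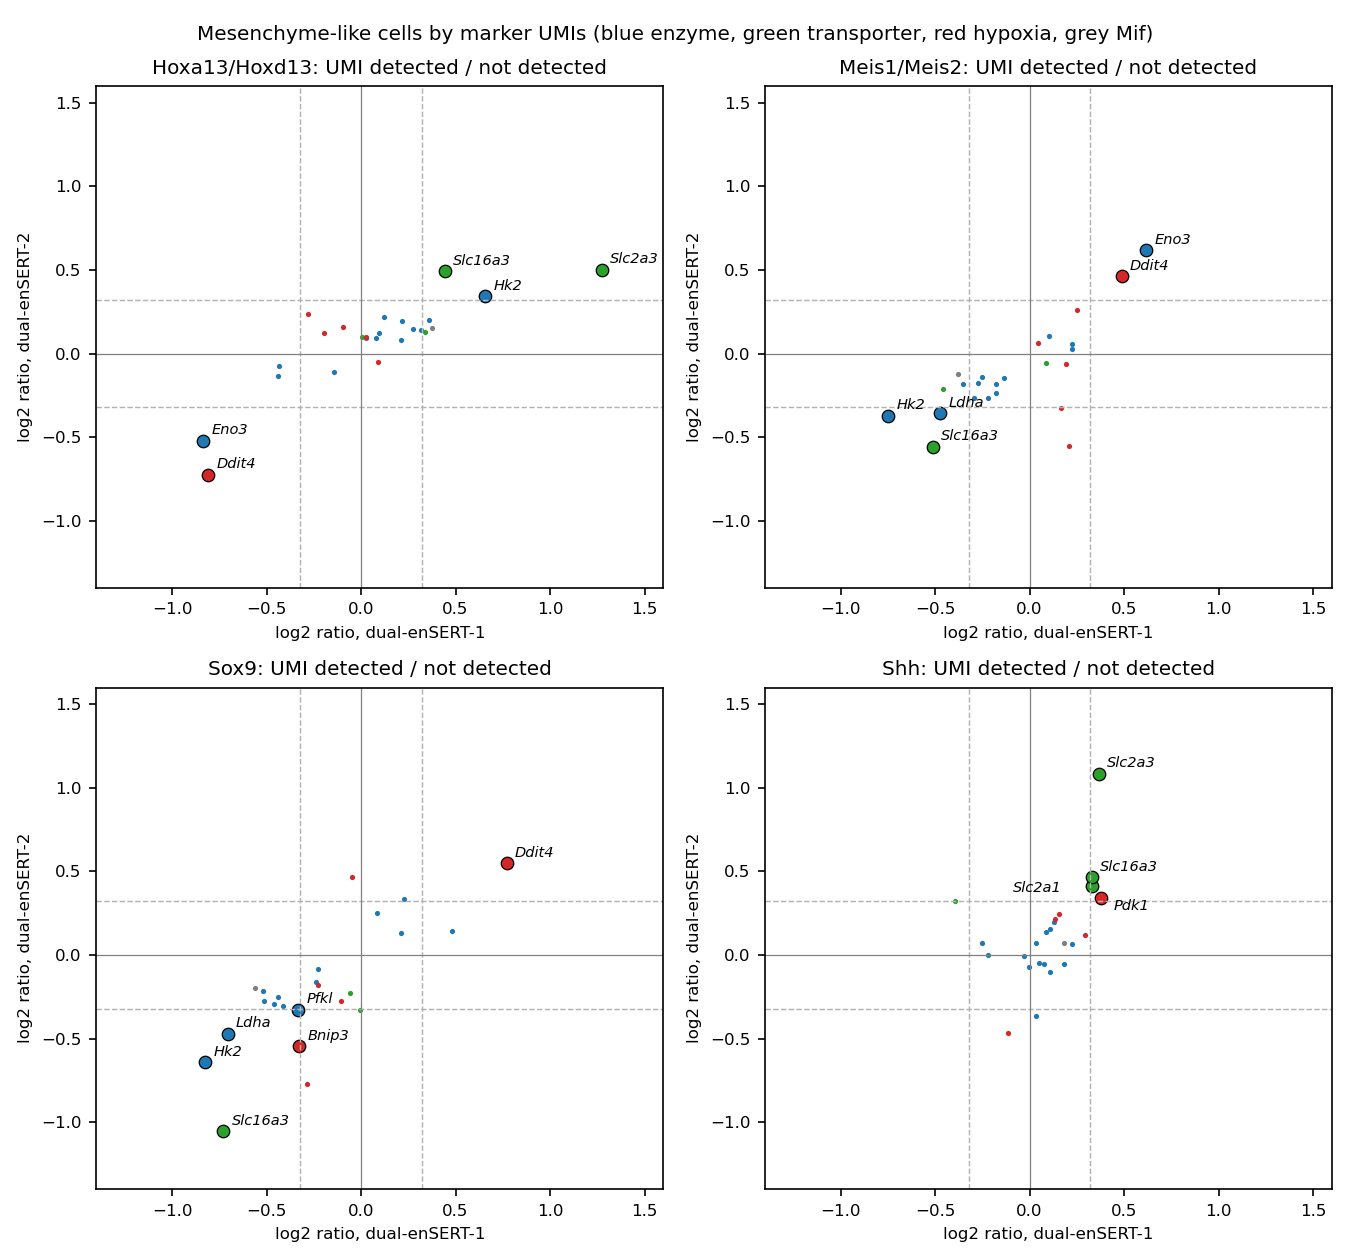
Log2 ratio of each gene above the floor in 4 comparisons of mesenchyme-like cells, dual-enSERT-1 on the x axis and dual-enSERT-2 on the y axis; dashed lines mark the threshold of a call (log2 0.32), large named points were called. Ddit4 and Eno3 sit low for Hoxa13/Hoxd13 and high for Meis1/Meis2, and Hk2 the other way round.

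By Sox9, 3 of 14 enzymes were called lower and none higher. Of 24 members, 5 were called lower with a Sox9 UMI and Ddit4 higher, against 1.59% lower and 2.33% higher of 8800 features (6104 against 6877 cells, and 1019 against 2742). Slc16a3 was at 23.9 against 40.2 CPM and 15.8 against 34.0 CPM. Ldha, which makes lactate, was at 520 against 848 CPM and 604 against 836 CPM. Hk2, Pfkl and Bnip3 were the other 3 called lower (log2 −0.83 and −0.64, −0.33 and −0.33, −0.33 and −0.54). The enzyme sum was 4872 against 6229 CPM and 5497 against 6344 CPM, and 10 of 14 enzymes were below 0 in both libraries, against 32% of all features. The regulator sum was 281 against 299 CPM and 175 against 197 CPM. Outside the set, Pdha1 (−0.39 and −0.44) and Tfrc (−0.41 and −0.42) were called lower and Slc16a7 (0.85 and 0.59) higher.

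Levels were also read by the number of Sox9 UMIs in a thinned cell. Hk2 stood at 80.2, 53.5, 41.1 and 38.2 CPM in cells with 0, 1, 2 and 3 or more Sox9 UMIs of dual-enSERT-1, and at 110.4, 77.5, 64.3 and 50.02 CPM in dual-enSERT-2. Eno1 was lower at each step of the same series, from 539 to 330.1 CPM and from 598 to 479 CPM. Ddit4 ran the other way, from 24.7 to 55.0 CPM and from 10.2 to 23.8 CPM, as did Ldhb, from 247 to 405 CPM and from 217 to 273 CPM. Ldha stood at 848, 602, 502 and 448 CPM and at 836, 663, 526 and 462 CPM, so the lactate dehydrogenase subunits ran in opposite directions. Cell cycle genes summed to 1769 down to 1536 CPM along the series in dual-enSERT-1 but 1844 up to 2083 CPM in dual-enSERT-2, and stress genes went from 94.0 up to 231 CPM and from 68.6 down to 44.6 CPM. The enzyme sum went from 6229 to 4490 CPM and from 6344 to 5024 CPM. The regulator sum had no such order in dual-enSERT-1, at 299, 261, 265 and 310 CPM. In dual-enSERT-2 it stood at 197, 176, 176 and 171 CPM. Median depth along the series went from 15621 to 12012.5 UMIs and from 27497 to 25882.5 UMIs. The part of the cell cycle, of stress genes and of depth in the result was not tested.

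**Figure D4:**
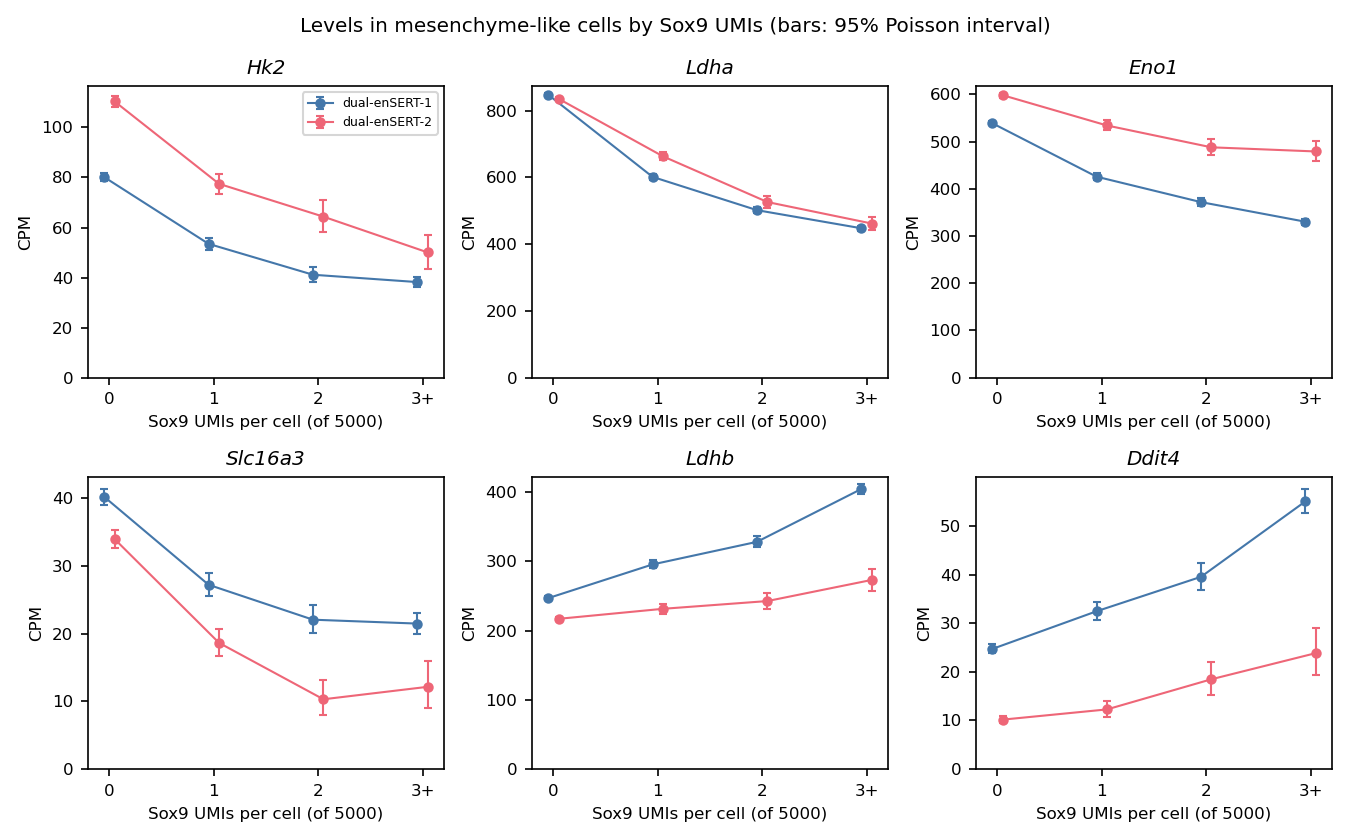
Level in CPM of 6 genes in mesenchyme-like cells by the number of Sox9 UMIs per thinned cell (0, 1, 2, 3 or more), with 95% Poisson intervals, in both libraries. Hk2, Ldha, Eno1 and Slc16a3 are lower in cells with Sox9 UMIs than in cells without in both libraries, Ldhb and Ddit4 higher.

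Between libraries, the comparison sets dual-enSERT-2 over dual-enSERT-1 within a class and calls a 1.5-fold ratio, with 10 CPM or more in either library. A gene that reached 10 CPM in only 1 library had its direction fixed by this floor. Slc2a3 and Ankrd37 reached it in mesenchyme-like cells through dual-enSERT-1 only. The shares over all features carry the same filter. In mesenchyme-like cells 1 of 26 members was called higher and 4 lower, against 2.48% and 6.89% of 9316 features. Hk2 was at 99.6 against 64.6 CPM (ratio 1.54, interval 1.502 to 1.581). Lower were Ddit4 (11.6 against 32.7 CPM; ratio 0.355), Bnip3 (19.6 against 48.5 CPM; 0.403), Pdk1 (12.4 against 24.1 CPM; 0.517) and Slc2a3 (8.05 against 13.2 CPM; 0.609). All 7 hypoxia-induced regulators above the floor were below 0, with a median log2 ratio of −0.55, while the 14 enzymes had a median of −0.01, as had all features, of which 51.8% were below 0. Of 12 hypoxia targets outside the set above the floor, 8 were below 0 and 4 above, with a median of −0.08, and Bnip3l (−0.66) and Plod2 (−0.64) were called lower.

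In the other classes the regulators called lower were 6 of 9 in endothelial-like, 5 of 6 in muscle-like, 2 of 8 in ectoderm-like and 1 of 6 in macrophage-like cells. In endothelial-like cells 9 of 9 were below 0, against 48.9% of all features, with Adm at 6.86 against 30.4 CPM and Ankrd37 at 13.7 against 58.4 CPM; 4.01% of features were called lower there. Bnip3 (log2 −1.72), Ndrg1 (−1.13), Ddit4 (−0.73) and Egln3 (−0.68) were the other 4, and of the enzymes Ldhb (−0.76) and Pfkl (−0.67) were called lower. No member was called higher, against 3.50% of features. Among the 9 regulators, Adm, Ndrg1 and Bnip3 reached 10 CPM in dual-enSERT-1 only, so the floor fixed their direction. In muscle-like cells 6 of 6 were below 0, against 40.9% of all features, and 7.35% of features were called lower. Bnip3 was at 9.91 against 36.1 CPM there, and Ddit4 (−1.36), Vegfa (−1.12), Pdk1 (−1.03), P4ha1 (−0.98) and the transporter Slc16a3 (−0.67) were called lower too; no member was called higher (6.90%). Of these muscle-like regulators, Bnip3, Vegfa and Pdk1 reached 10 CPM in dual-enSERT-1 only.

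In ectoderm-like cells 7 of 8 regulators were below 0, against 43.2% of all features. Bnip3 (log2 −0.72) and Vegfa (−0.69) were called lower, against 5.67%, and Ndrg1 (0.62) higher, against 5.93%. In macrophage-like cells 3 of 6 were below 0, against 41.1% of all features. Bnip3 (−1.02) and the enzyme Eno3 (−0.92) were called lower, against 6.69%, and Hk1 (1.496), Slc16a1 (0.61) and Egln3 (1.70) higher, against 14.9%. Ndrg1 in ectoderm-like and Egln3 in macrophage-like cells reached 10 CPM in dual-enSERT-2 only, and Eno3 in macrophage-like cells in dual-enSERT-1 only. Bnip3 was called lower in all 6 classes. In endothelial-, muscle- and erythroid-like cells it reached 10 CPM in dual-enSERT-1 only. The hypoxia targets outside the set had a median of −0.11 in endothelial-, −0.11 in muscle- and −0.08 in ectoderm-like cells, against 0.01, 0.07 and 0.05 over all features. In macrophage-like cells their median was 0.27 against 0.09, with Ero1a (0.68), Cited2 (0.63), Mxi1 (0.60) and Tfrc (0.59) called higher and Hmox1 (−1.39) lower. Of the others called, Tfrc (0.84) was higher and Hilpda (−0.78) lower in endothelial-like cells, Cited2 (0.75) higher and Plod2 (−0.97) and Hmox1 (−0.67) lower in muscle-like cells, and Hmox1 (1.20) and Car12 (0.91) higher and Bnip3l (−0.62) lower in ectoderm-like cells.

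The remaining lists gave few calls outside erythroid-like cells. Bpgm was higher in endothelial-like (log2 0.98) and macrophage-like cells (1.27), Hif1an in ectoderm-like (0.70), and Vhl (0.79) and Dlst (0.61) in muscle-like cells. Pck2 was lower in endothelial-like (−0.75) and Pgam2 in muscle-like cells (−4.38). In erythroid-like cells 38.1% of features were called higher and 1.76% lower; Egln1 (log2 0.84), Pfkl (0.83), Slc2a1 (0.72) and Hk1 (0.71) were among the former and Ldhb (−1.34) and Bnip3 (−0.77) among the latter. With doublets kept, 17 members were called there instead of 6, 15 of them lower, and Pfkl (−0.51) and Egln1 (−0.74) lay below 0. Citrate cycle genes were called higher there in 7 of 12 cases, among them Idh3a (0.87), Sdha (0.77) and Dlst (0.76), as were Pklr (1.17), Pdha1 (1.06), Dld (0.62), Hif3a (0.93), Hif1a (0.66), Arnt (0.63), G6pdx (0.83), Rpia (0.83) and Fam162a (0.60).

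Within the Hoxa13/Hoxd13 cells, Ddit4, Bnip3, Pdk1 and Slc2a3 were called lower (5.48% of features) and none higher (2.32%). In cells without these UMIs Ddit4, Bnip3, Pdk1, Ankrd37 and Hk1 were called lower (8.49%) and Hk2 higher (4.01%). Depth, stress genes and hemoglobin differed between the libraries as well. Mesenchyme-like cells had a median of 14574.5 UMIs in dual-enSERT-1, and 27331 in the dual-enSERT-2 library, stress genes of 127 and 65.9 CPM, and hemoglobins of 311 and 4266 CPM. Hemoglobins stood at 2160 and 22397 CPM in endothelial-like, 1701 and 7863 CPM in muscle-like, 298 and 8656 CPM in ectoderm-like and 640 and 13950 CPM in macrophage-like cells. Their part in the result was not tested.

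**Figure D5:**
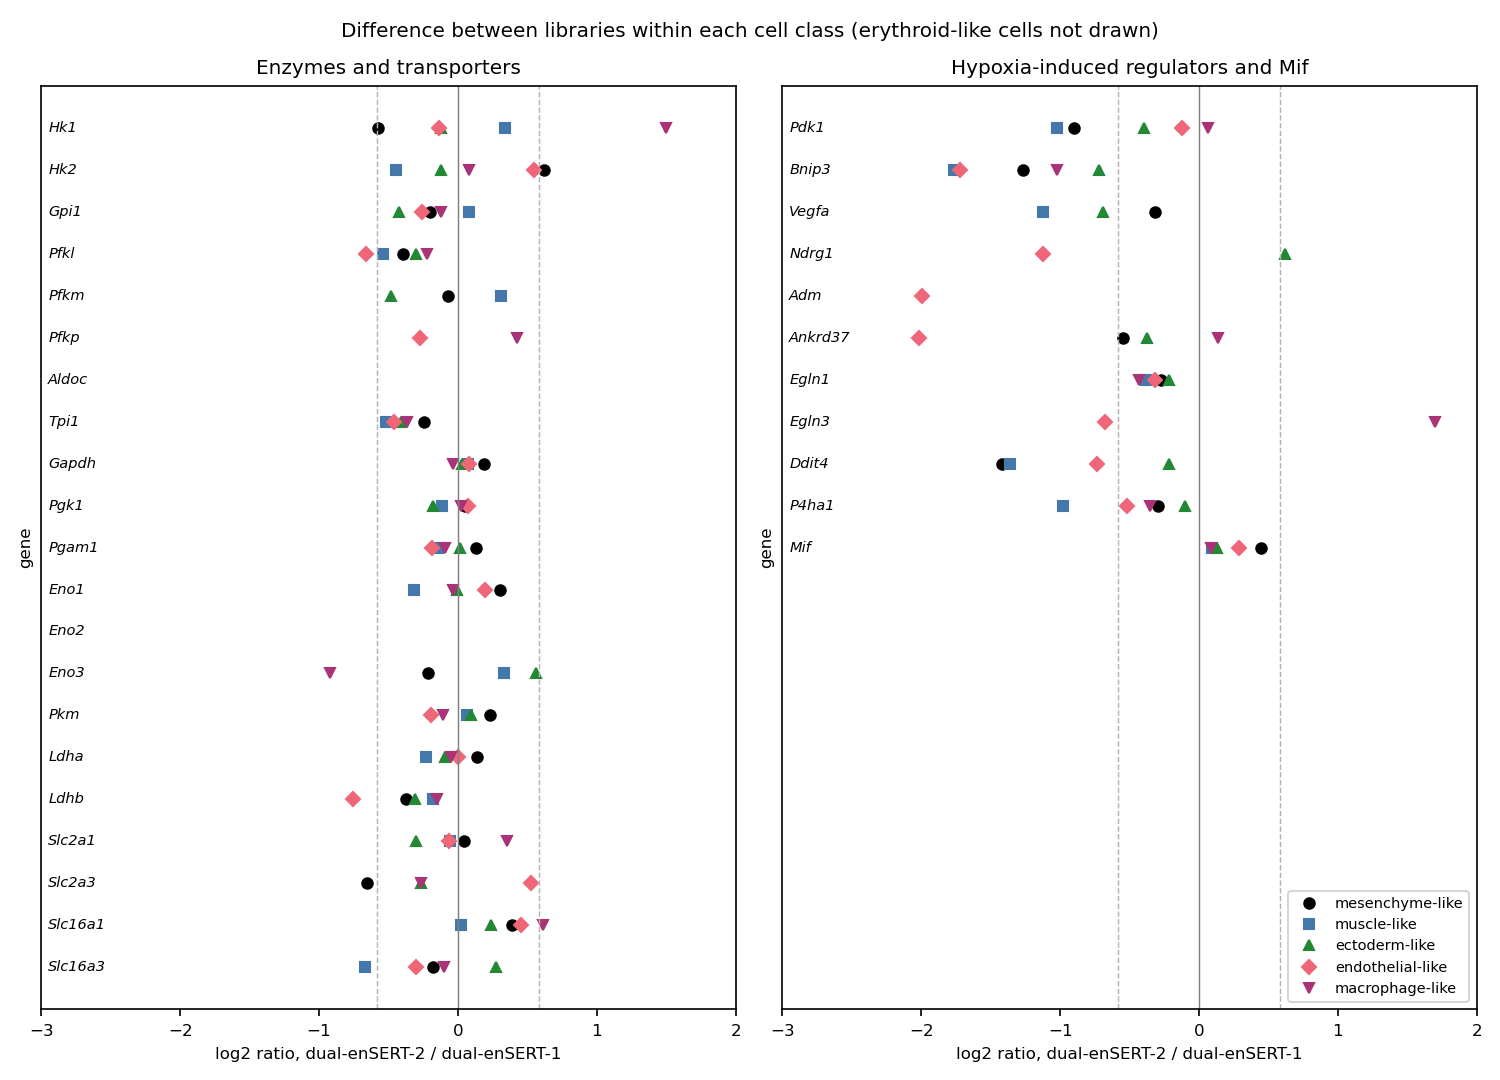
Log2 ratio of dual-enSERT-2 over dual-enSERT-1 for each gene above the floor in 5 classes; dashed lines mark 1.5-fold. Points of the hypoxia-induced regulators lie mostly left of 0, with Bnip3 left of the line in every class drawn, while those of the enzymes lie on both sides.

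Across the mesenchyme-like clusters, the summed enzymes spanned 4190 to 6814 CPM over 19 clusters of dual-enSERT-1 and 2452 to 6888 CPM over 10 clusters of dual-enSERT-2. The lowest of dual-enSERT-2 was a cluster of 104 cells with a median of 10226.5 UMIs, led among others by the mitochondrial RNAs mt-Rnr1 and mt-Rnr2. Mitochondrial UMIs made up 6.457% of its counts, against at most 1.828% in the other clusters. The next lowest enzyme sum was 5011 CPM. The dual-enSERT-2 correlations below include this cluster and were not computed without it. The sums of the enzymes and of the regulators had a Pearson r of −0.236 and 0.029 across clusters (Spearman −0.251 and 0.139), a description over points that share a library. The enzyme sum had a Pearson r of 0.483 and 0.724 with median depth (Spearman 0.514 and 0.394) and of −0.716 and 0.368 with stress genes (Spearman −0.574 and 0.624). The cluster with the highest regulator sum in dual-enSERT-1, at 405 CPM, was led by Kctd8 and Hand1, and its Ddit4 level of 82.6 CPM was the highest of the 19. Its Sox9 level was 626 CPM. The clusters with the next highest sums, 380 and 357 CPM, had Sox9 at 1037 and 911 CPM. Bnip3 stood at 72.3, 56.1 and 66.2 CPM in these clusters, against a median of 53.4 CPM over the 19. The clusters with the lowest regulator sums of dual-enSERT-1, 226 and 229 CPM, had Sox9 at 580 and 463 CPM. In dual-enSERT-2 the cluster with the highest regulator sum, 227 CPM, had Sox9 at 32.5 CPM.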

How the data were processed

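UMI counts per gene and cell were deposited as 1 matrix per library. Cell Ranger 7.0.1 is named per the file headers, but version 3.1.0 of it per the submitters' processing notes, which also list Seurat 4 and mm39. Which gene annotation was used, and whether introns or strand counted, is not given in the sources used here. Per the labels' protocols, 10000 cells were loaded and about 50000 reads sequenced per cell.

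Barcodes needed 1000 or more genes and no more than 10% of UMIs from mitochondria. Scrublet, run in Scanpy 1.11.5 with an expected rate of 8%, marked 1749 (9.831%) and 211 (3.157%) doublets, which were removed. Each library was clustered on its own (2000 variable genes without the members, eGFP, mCherry and Shh; 30 principal components; 15 neighbours; Leiden resolution 1). A cluster was named from at least 3 markers that were 2-fold higher and present in 10% of its cells; names are rebuilt here and not the authors'. Ratios have exact binomial 95% intervals. All intervals cover counting error of UMIs pooled over the cells of 1 embryo, with each UMI taken as independent. They include neither the spread between cells nor the spread between embryos. The calling rule and the Poisson interval were also run on simulated Poisson counts. Those counts hold no doublets and no spread between cells beyond counting error, so they do not test for either.

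All 32 members are accounted for; those with the largest ratio common to both libraries are given in full, up to 8 per direction, and genes of other pathway lists when called, up to 4 per list. Where a contrast called most features lower (erythroid-like cells), genes of other lists called lower are given as counts. The members and lists were chosen with earlier results of these data known. Promoter windows are RefSeq's on GRCm38.p6, matched by symbol, and are used for sequence only.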

Additional observations from a re-analysis of the deposited data

Results flagged for a closer look

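Some members had ratios of opposite sign in the groups compared, and these differences were not tested. Slc16a1 by Shh had a log2 ratio of -0.3966 in the dual-enSERT-1 library, against 0.3238 in the other. Between libraries, Pfkl had 0.8278 in erythroid-like and -0.6653 in endothelial-like cells; with doublets kept the erythroid ratio was -0.5139, so the signs were then alike. Ndrg1 had -1.126 in endothelial-like and 0.6201 in ectoderm-like cells. Egln3 had -0.6781 in endothelial-like and 1.7 in macrophage-like cells, the latter from 34 and 8 UMIs.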

How the results depend on the processing

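Of 178 counts of called members under 22 alternatives, 2 of them chosen after seeing the data, 161 were within 1.5 times the reported count and 17 were not; of 2390 called ratios, 11 reversed. With doublets kept, 17 members were called between libraries in erythroid-like and 8 in macrophage-like cells, and the erythroid ratios of Pfkl (-0.5139) and Egln1 (-0.7376) reversed. Without hemoglobin UMIs the erythroid ratio of Pfkm in dual-enSERT-2 was 0.1753. A pseudocount of 5 CPM left 0 members called by Shh and 1 between libraries in ectoderm-like cells. A floor of 20 CPM left 7 in macrophage-like cells, 3 by Hoxa13/Hoxd13, and between libraries 3 in erythroid-like, 1 in ectoderm-like and 3 in muscle-like cells; no floor gave 12 in erythroid-like and 5 in ectoderm-like cells. By Shh, 2 were called from the mean over cells, 1 without thinning (Pdk1 -0.0397 in dual-enSERT-2), 2 from thinned levels (Slc2a1 -0.3262, Slc16a3 -0.3489 and Pdk1 -0.3781 in dual-enSERT-2) and 2 without cycling cells (Slc2a1 -0.01617 in dual-enSERT-1, Slc2a3 -2.946 and Slc16a3 -0.1653 in dual-enSERT-2). Requiring 2 UMIs of the group gene gave 8 by Meis1/Meis2 and 10 by Sox9, and a Slc2a3 ratio by Shh of -3.458 in dual-enSERT-2. That ratio is set by the pseudocount, as the Shh group then held no Slc2a3 UMI. Where the alternative's own construction does not show it, the cause was not tested. No paired analysis was possible because each genotype has 1 library. The Shh comparison rests on 217 and 45 cells with a Shh UMI, and the macrophage-like class on 63 and 56 cells; at their depth the dual-enSERT-2 ratio of Pdk1 by Shh, from 25 UMIs, had an interval that spans 1.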
